A study of Drosophila melanogaster with 2 samples.

Results

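A head-to-head promoter pair is a pair of genes on opposite strands whose transcripts start close together and run apart. Of the 3774 thresholded peaks of the Rotund-eGFP fusion on the 6 main chromosome arms, 437 had their summit within 500 bp of a protein-coding transcript start on the plus strand and also within 500 bp of such a start on the minus strand. The rule uses position alone and no signal. These 437 both-strand peaks were 32.3% of the 1351 peaks with a protein-coding start within 500 bp of the summit. The other 914 had starts on 1 strand only (1-strand peaks), and 2423 had no such start within 500 bp. The both-strand peaks lay within 500 bp of starts of 880 genes, which is 6.31% of the 13945 protein-coding genes.

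The data are chromatin immunoprecipitation with sequencing (ChIP-seq) from 1 group with 2 biological replicates, whole Drosophila melanogaster pupae of strain rn-GFP, which express the zinc finger transcription factor Rotund (rn) fused to eGFP. Chromatin was sheared by sonication and the fusion was pulled down through its GFP tag. The pupal stage is unknown and sex was not recorded. What drives the fusion, and how many animals made up a sample, is not stated. Whole animals mix all tissues, so a peak in few cells and weak binding in many cells cannot be told apart. Control libraries were not analysed here. With 1 group, every comparison below is between classes of peaks and carries no test.

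Genes of the compact fly genome often stand back to back, with a short stretch of DNA serving as promoter for both. Head-to-head pairs are known to be rich in broadly expressed genes, such as those for ribosome, mitochondrial and transcription subunits. Such promoters often carry the DNA replication-related element bound by Dref, which contains the core bound by the boundary protein BEAF-32, whereas GAGA elements bound by Trithorax-like are typical of regulated promoters.

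Sequences between the starts are printed for some of the 12 strongest peaks. Only stretches of 20 to 300 bases were taken, so their shortness is set by that choice and wider pairs are left out. In each line the plus strand of the Release 6 (dm6) genome is printed 5′ to 3′ from RefSeq, between the minus-strand start of the first gene and the plus-strand start of the second, trimmed to the part free of annotated exons. Capitals mark the 31 bases centred on the peak summit. The first 4 belong to strong peaks with the summit near the middle, and the last 2 are close pairs whose summit fell outside the stretch, so that they hold no capitals.
Tcs5/CHMP2B, chr3L:5139396-5139618: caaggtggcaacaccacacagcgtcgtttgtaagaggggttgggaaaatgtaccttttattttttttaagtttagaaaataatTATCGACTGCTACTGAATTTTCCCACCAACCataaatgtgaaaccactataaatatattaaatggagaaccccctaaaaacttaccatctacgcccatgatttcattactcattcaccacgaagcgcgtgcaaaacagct
Art3/mRpS10, chr3R:15229409-15229664: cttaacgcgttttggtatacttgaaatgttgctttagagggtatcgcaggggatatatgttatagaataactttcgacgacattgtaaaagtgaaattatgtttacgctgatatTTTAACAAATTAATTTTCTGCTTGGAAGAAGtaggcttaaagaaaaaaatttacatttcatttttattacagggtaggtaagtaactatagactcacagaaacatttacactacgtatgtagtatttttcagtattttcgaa
CG7601/CIA30, chr3R:29736746-29736964: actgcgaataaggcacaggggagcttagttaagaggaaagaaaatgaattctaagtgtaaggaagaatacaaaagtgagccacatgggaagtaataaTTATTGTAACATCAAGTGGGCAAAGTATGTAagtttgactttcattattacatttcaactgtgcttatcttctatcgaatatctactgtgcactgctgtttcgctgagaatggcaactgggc
CG3437/CG3552, chr3L:9457670-9457911: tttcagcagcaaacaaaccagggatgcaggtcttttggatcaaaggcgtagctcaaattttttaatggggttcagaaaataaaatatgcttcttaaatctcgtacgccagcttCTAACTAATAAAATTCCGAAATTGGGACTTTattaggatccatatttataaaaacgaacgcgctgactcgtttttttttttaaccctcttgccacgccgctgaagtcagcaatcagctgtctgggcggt
mRpL23/CG9004, chr3L:2373705-2373727: gttgtccaacacttgttttaaac
CG1275/Elp5, chr3L:2257424-2257455: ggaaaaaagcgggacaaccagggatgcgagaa
The first 4 stretches are 223, 256, 219 and 242 bases long with 38.1%, 30.1%, 37.9% and 40.1% G and C. In the Tcs5/CHMP2B stretch the boundary core CGATA, on either strand, begins at base 84 and falls within the capitals. In the Art3/mRpS10 stretch it begins at base 42 and in the CG7601/CIA30 stretch at base 170, both outside the capitals. The CG3437/CG3552 stretch holds none, and has the E-box CAGCTG at base 227.

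The strongest both-strand peak was the one between CHMP2B, which encodes an ESCRT-III subunit of endosomal sorting, and Tcs5, which encodes a kinase of the tRNA-modifying KEOPS complex. Its signal, which is the authors' own peak height, was 856 in the set over both replicates, 436 in replicate 1 and 426 in replicate 2. Signals are on each list's own scale, since the authors did not scale them between lists. Its summit lay 99 bp upstream of the Tcs5 start and 125 bp upstream of the CHMP2B start. The peak between mRpS10 (a mitochondrial ribosomal protein) and Art3 (an arginine methyltransferase) had a signal of 826, with 430 and 402 in replicates 1 and 2. Its summit stood 127 bp from the mRpS10 start and 130 bp from the Art3 start. The peak between CIA30, a mitochondrial complex I assembly factor, and CG7601 reached 806 (416 in replicate 1 and 400 in replicate 2), and its summit was 107 bp upstream of CIA30 and 113 bp upstream of CG7601. These 3 summits each lay close to the middle of their pair.

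Among the others of the 12 strongest, 1 more was near the middle. The CG3552/CG3437 peak reached 700 (363 in replicate 1 and 333 in replicate 2), and its summit lay 114 and 129 bp upstream of its starts. At Mtl and CG5611 the signal was 688 (349 and 337), and the summit was 239 bp upstream of Mtl and 113 bp upstream of CG5611. At CenG1A, an Arf GTPase-activating protein gene, and mRpS23 the signal was 664 (352 and 318), with the summit 95 bp upstream of CenG1A and 397 bp upstream of mRpS23. In both of these wider pairs the summit was closer to 1 gene than to the other. At CG1792 and Mnat9, an N-acetyltransferase homolog gene, the signal was 614 (347 and 264) and the summit was 2 bp from the Mnat9 start. At Ssl1, a subunit gene of the general factor TFIIH, and Chro, which encodes the interband protein Chromator, the signal was 600 (303 and 297), with the summit 214 bp upstream of Ssl1 and 107 bp upstream of Chro.

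In the remaining 4 of the 12, the summit lay outside the pair. At CG8320 and Pex11ab, a peroxisome division gene (chr2R:15992378-15992616), the signal was 761 (392 and 372), and the summit was 121 bp upstream of Pex11ab and 88 bp downstream of the CG8320 start. At CG9004 and mRpL23 the signal was 637 (339 and 293), with the summit 135 bp upstream of CG9004 and 85 bp downstream of the mRpL23 start. At Elp5, an Elongator subunit gene, and CG1275 the signal was 605 (295 and 310), with the summit 80 bp upstream of CG1275 and 47 bp downstream of the Elp5 start. The starts of these 3 pairs stood only 33, 50 and 33 bp apart, so that a summit upstream of one gene was downstream of the start of the other. The starts were 348 bp apart at the last of the 4, the peak at CG12194 and tank (signal 607, 311 and 294), which lay 137 bp inside tank and 485 bp from CG12194. All 12 peaks were called in the thresholded set of each replicate.

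At the other end, 6 of the 437 both-strand peaks had a signal under 10, as had 50 of all 3774 peaks. All 6 overlapped another thresholded peak, as did 20 (4.58%) of the 437. The share that overlapped another was not worked out over all peaks. Among the weakest were those at mRpL2 and the forkhead gene FoxK (4.49) and at the ribosomal protein gene RpS5a and Chchd2 (5.10). The ranked lists of replicates 1 and 2 gave 54.9 and 10.9 at mRpL2 and FoxK, and 2.85 and 32.6 at RpS5a and Chchd2. Neither of these was called in both replicates' own sets. Most peaks stood at a single pair of genes. The 437 peaks had 426 different nearest pairs, 11 of which held 2 peaks, and 417 peaks had starts of just 2 genes within 500 bp. The peak with the most genes, 10, lay among the precursor genes of mod(mdg4), a locus known for joining exons from both strands by trans-splicing, and had a signal of 155 (64.8 in replicate 1 and 91.4 in replicate 2). The next, with 5 genes, lay at NC2alpha, a negative cofactor of transcription, and PIG-M, with a signal of 191 (96.6 and 93.8).

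Signals on either side of the 500 bp limit overlapped. Just inside were the peaks at Ets96B and CG5805, with the farther start at 497 bp and a signal of 49.6, and at the peroxisomal genes Pex14 and Pex16, at 492 bp with 89.8. Just outside were those at CG7386 and D19A, at 501 bp with 73.2, and at p38b and CG9008, at 507 bp with 104.

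Promoter peaks of both classes were a larger share near the top of the ranking, and the typical signal of both-strand peaks was slightly above that of other promoter peaks. Both-strand peaks made up 25% of the 100 strongest peaks (95% Wilson interval 17.5 to 34.3, which covers counting error over peaks only), 16% of ranks 101 to 500, 12.4% of ranks 501 to 1000, 11.1% of ranks 1001 to 2000 and 9.86% (8.56 to 11.3) of the rest. The 1-strand peaks were 35 of the 100 strongest and 409 of the 1774 weakest. Of promoter peaks alone, both-strand peaks were 41.7% in the 100 strongest, 35.8%, 31.2% and 33.7% in the next bins and 30.0% in the last. The median signal was 88.9 for both-strand peaks (quartiles 64.7 and 155), 83.0 for 1-strand peaks (61.3 and 134) and 77.3 for peaks with no start (58.9 and 111). In the replicate 1 ranked list the medians were 46.9, 46.2 and 42.0 in the same order, and in that of replicate 2 they were 45.7, 40.6 and 37.2. The difference from 1-strand peaks was therefore 5.08 in replicate 2 and 0.716 in replicate 1, both small beside the quartile range. The difference from peaks with no start was 8.50 in replicate 2 and 4.96 in replicate 1.

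**Figure D1:**
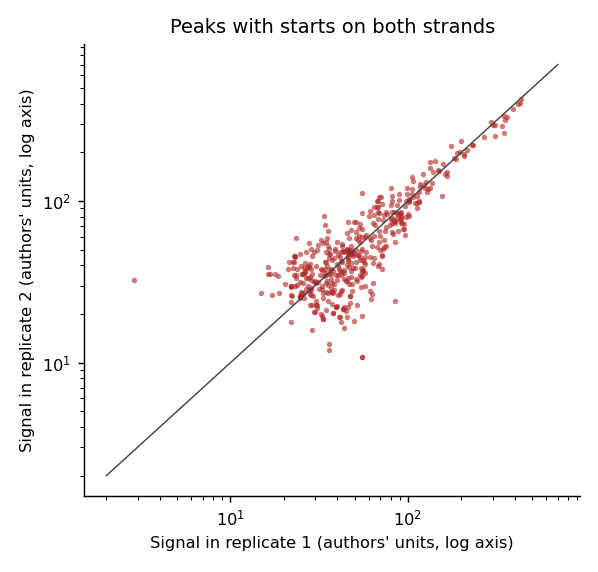
Signal of 425 both-strand peaks found in both ranked lists, replicate 1 on the x axis against replicate 2 on the y axis, both on log axes in the authors' units, with the line of equal signal. Strong peaks lie close to the line and weak ones scatter around it, with a point far to the left at 2.85 in replicate 1.

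Signals in the 2 replicates rose together across both-strand peaks. The set was thresholded on the irreproducible discovery rate (IDR), a measure of reproducibility, so some of this agreement may come with that choice. Across 425 both-strand peaks with a value in both ranked lists, Pearson's r was 0.963 and Spearman's rank correlation 0.754, as a description across peaks that share 2 libraries. For 891 1-strand peaks they were 0.929 and 0.709, and for 2386 peaks with no start 0.883 and 0.635. The SD of the log2 ratio of the replicates was 0.56 for both-strand peaks, 0.62 for 1-strand peaks and 0.61 for those with no start. Where a peak was called in both replicates' own sets (216 both-strand peaks), the replicate summits lay a median of 15 bp apart.

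Of the both-strand peaks 216, or 49.4% (44.8 to 54.1), overlapped a peak in each single-replicate set by at least 1 bp, against 45.3% of 1-strand peaks, 38.7% of peaks with no start and 41.5% of all thresholded peaks. The share with a partner in neither was 20.6%, 24.7% and 29.4% in the same order, against 27.2% overall. In the replicate 2 set 283 both-strand peaks (64.8%, 60.2 to 69.1) had a partner, against 56.5% of 1-strand peaks, 51.0% of those with no start and 53.9% overall. In the replicate 1 set both-strand and 1-strand peaks had the same share, 64.1%, with 58.3% for peaks with no start and 60.4% overall. The conservative set met 388 both-strand peaks (88.8%), 86.9% of 1-strand peaks and 83.9% of those with no start, against 85.2% overall.

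Recurrence followed signal in every class. Above the upper quartile of signal over all peaks, 97.9% of both-strand, 99.6% of 1-strand and 97.4% of no-start peaks were in both replicates' sets. Below the lower quartile the shares were 2.53%, 2.42% and 1.67%. The classes were thus close at like signal, and 33.4% of both-strand peaks stood above the upper quartile, against 29.4% of 1-strand peaks and 21.8% of peaks with no start.

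Summits mostly fell between the starts. In 428 of the 437 both-strand peaks the nearest starts were head to head, and in 9 they faced each other. The summit lay between the nearest starts in 364 peaks (83.3%, 79.5 to 86.5), whereas 42.6% of the bases that satisfy the rule lie between the nearest starts. It lay upstream of both genes in 362 peaks (82.8%). Of the 1-strand peaks 713 (78.0%, 75.2 to 80.6) were upstream of their nearest start.

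The gap between the nearest starts had a median of 284 bp (quartiles 214 and 393). From the summit, the nearer start was a median of 96.0 bp away (62.0 and 130) and the farther 206 bp (146 and 308). Summits 50 to 200 bp upstream of the nearer start made up 66.8% of both-strand peaks (62.3 to 71.1), and 39.4% of 1-strand peaks (36.3 to 42.6) had that position relative to their nearest start. That band holds 22.5% of the bases within 500 bp of starts on both strands, and 14.6% of the bases near starts on 1 strand. With a start on either side the nearer one is closer by construction. In 143 both-strand peaks (32.7%) the summit was 50 to 200 bp upstream of both starts at once.

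**Figure D2:**
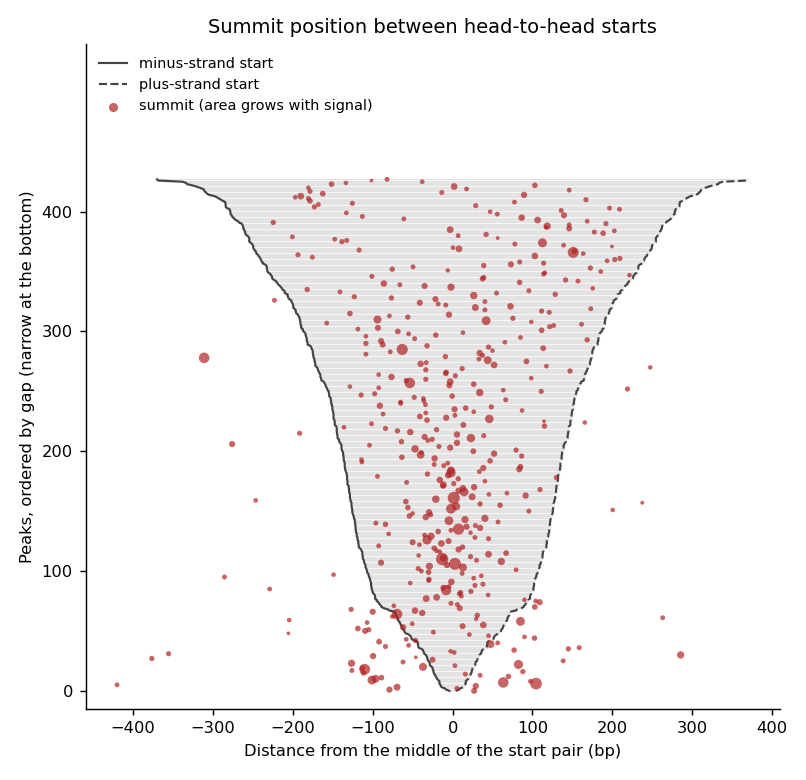
Position of the summit in 428 both-strand peaks with head-to-head starts. The x axis is the distance in bp from the middle of the start pair, the y axis orders the peaks by gap, the lines mark the 2 starts with the stretch between them in grey, and the point area grows with signal. Points gather near the middle where the gap is 200 to 299 bp, lie beside the pair where the gap is under 100 bp, and spread toward either start in wide pairs.

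Stronger peaks sat closer to the middle in bp, with the gap not held fixed. The gap bounds this distance for summits between the starts, and its part was not tested. Among 362 summits upstream of both starts, the distance to the middle of the pair had a median of 47.8 bp (23 and 102). It was 33.8 bp for the 118 above the upper quartile of signal and 68.0 bp for the 63 below the lower quartile. For the 73 among the 500 strongest peaks it was 28.5 bp (8 and 52), and these lay a median of 132 bp upstream of each start (107 and 172).

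The density of summits changed with the gap. For every base within 500 bp of starts on both strands, which together make 1.67 Mb or 1.25% of the arms and are called the ground here, the gap between the nearest starts was taken. Facing starts had 11.9 both-strand summits per 100 kb of ground, from 9 peaks. Among head-to-head starts the density was 13.9 at a gap of 0 to 99 bp and 15 at 100 to 199 bp. It was 37.2 at 200 to 299 bp, 33.3 at 300 to 399 bp and 36.0 at 400 to 599 bp, and 13.9 at 600 to 1000 bp. With the gaps merged into 2 bins, each replicate's own set was also denser at the wider gap, with 9.84 per 100 kb at 0 to 199 bp and 23.7 at 200 to 599 bp in replicate 1, and 9.66 and 24.2 in replicate 2.

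**Figure D3:**
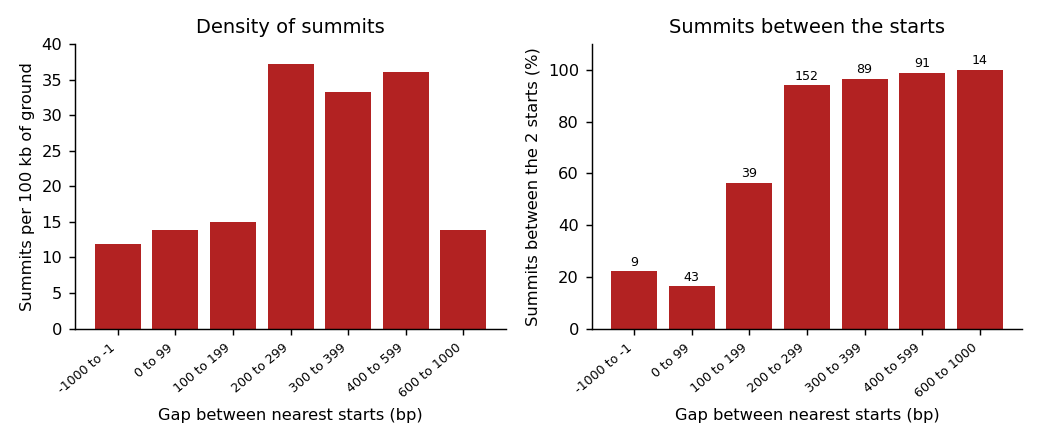
Both-strand summits by the gap between the nearest plus and minus starts in bp, where negative gaps are facing starts. Left, summits per 100 kb of ground, which shrinks per pair as the gap widens. Right, the percentage of summits between the 2 starts, with the number of peaks above each bar. Density was 37.2 at 200 to 299 bp and 13.9 at 0 to 99 bp, and 16.3% of summits lay between starts 0 to 99 bp apart, against 94.1% at 200 to 299 bp.

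Close pairs differed in where the summit lay. With a gap of 1 to 99 bp, 36 of 43 summits (83.7%) were outside the pair. They lay a median of 115 bp upstream of 1 start (91.0 and 141) and 68.0 bp downstream of the other, as at Pex11ab and Elp5 above. Median signal was 100 at a gap of 0 to 99 bp, 73.3 at 100 to 199 bp, 99.2 at 200 to 299 bp, 86.4 at 300 to 399 bp, 79.8 at 400 to 599 bp and 70.5 beyond, with no steady trend.

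Ground near starts on both strands was denser in peaks than that near starts on 1 strand. It held 26.1 summits per 100 kb, against 6.69 on 1-strand ground (13.7 Mb, 10.2% of the arms) and 2.04 on the rest of the arms, ratios of 3.90 and 12.8. Restricted to bases upstream of both nearest starts, both-strand ground held 53.5 summits per 100 kb, and bases upstream of the nearest start on 1-strand ground held 11.5, a ratio of 4.63. The rest of the both-strand ground held 7.52 and the rest of the 1-strand ground 2.69. Put by gene, 1046 of 5141 genes with an opposite-strand start within 1000 bp (20.3%, 19.3 to 21.5) had a summit of any class within 500 bp of a start, against 647 of 8804 genes without one (7.35%, 6.82 to 7.91) and 12.1% of all genes. A summit at a pair counts for both of its genes, as the 437 both-strand peaks did for 880 genes. The intervals take genes that share a summit as separate.

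Most such promoters had no peak. The arms hold 2536 separate stretches of bases within 500 bp of starts on both strands, and 427 of them (16.8%) held a both-strand summit. Grouped by the gap at the middle of the stretch, the share was 16% at 0 to 99 bp and 12.1% at 100 to 199 bp. It was highest at 200 to 299 bp, 28.9% (25.1 to 33.0), with 21.6% at 300 to 399 bp and 16.9% at 400 to 599 bp. At 600 to 1000 bp it was 2.72%.

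The X chromosome differed from the large autosomal arms in opposite ways for both classes of promoter peak. Both-strand ground held 15.5 summits per 100 kb on X (40 peaks), against 24.9 on 2R (85 peaks), 26.4 on 3R (110), 28.3 on 2L (95) and 33.9 on 3L (107). On 1-strand ground X had 8.14 per 100 kb, against 5.97 to 6.95 on the large autosomal arms. The small arm 4, with 7.73 kb of both-strand ground, had no both-strand peak.

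The genes at both-strand peaks were set against 22 gene lists, most of them for basic cell functions. These lists were chosen with earlier results of these data known, so their shares are a description only. Across the lists, with 1064 genes, 138 (13.0%, 11.1 to 15.1) lay within 500 bp of a both-strand summit, against 6.31% of all protein-coding genes. Only genes with an opposite-strand start within 1000 bp, called paired here, can be at such a peak. Of the 620 paired list genes 22.3% (19.2 to 25.7) were, against 17.1% of all 5141 paired genes. The lists thus cover 138 of the 880 genes at both-strand peaks, and a further 259 carry only a CG number.

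Of the peroxisome and autophagy list, 14 of 35 genes were at both-strand peaks, which is 14 of the 28 that are paired with an opposite start, and 1 was at a 1-strand peak. Behind Pex11ab the strongest were Atg7, the autophagy activating enzyme (185, 81.5 and 108 in the replicates), Atg2, a lipid transfer protein of autophagosome growth (176, 87.2 and 84.2), and Atg18a, a phosphoinositide-binding autophagy protein (156, 68.1 and 85.2). The list holds both genes of the pair Pex14 and Pex16. Of the transcription machinery list 20 of 82 genes were at both-strand peaks (35.1% of the 57 paired) and 3 at 1-strand peaks. Among them were the Mediator subunit MED30 (169, 92.1 and 73.4), the RNA polymerase II subunits Polr2H (166, 67.5 and 100) and Polr2B (161, 67.4 and 91.5), and the RNA polymerase III factor Brf (164, 81.3 and 78.2). The own sets of replicates 1 and 2 held fewer both-strand peaks, 290 and 292 against 437. All lists together had 94 and 91 genes at them, against 138. A lower count of a list in these sets, here and below, is therefore not by itself a lower share. In replicate 2's own set the transcription machinery count was 9, and in that of replicate 1 it was 14. The peroxisome and autophagy count was 12 and 11 in the same order.

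Cytosolic ribosomal protein genes were divided between both classes, with 17 of 86 at both-strand peaks (32.1% of 53 paired) and 14 at 1-strand peaks. In replicate 1's own set the both-strand count was 10 and in that of replicate 2 it was 12. The strongest were RpS27 (172, 54.8 and 112), RpL34b (163, 91.2 and 76.9), RpL7 (161, 95.1 and 67.1) and RpL14 (145, 81.6 and 64.3). Mitochondrial ribosomal protein genes had fewer, 10 of 75 (16.9% of 59 paired) with 1 at a 1-strand peak, but stronger, with a median best signal of 219 against 91.3 for the cytosolic ones. After mRpS10, mRpS23 and mRpL23 came mRpL24 (315, 133 and 175). The share of paired mitochondrial ribosomal protein genes was thus close to the background of 17.1%.

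Other lists of mitochondrial and protein synthesis genes were near or below that background. Respiratory chain subunits had 6 of 86 genes at both-strand peaks (13.3% of 45 paired), led by the complex I subunits ND-ASHI (208, 109 and 97.8) and ND-MWFE (155, 87.5 and 65.3). Mitochondrial import and chaperones had 1 of 20, the outer membrane subunit Tom7 (89.1, 47.5 and 41.3). Translation factors had 3 of 60 (10.3% of 29 paired) and 8 at 1-strand peaks, with the termination factor eRF1 (96.0, 45.6 and 49.7) strongest. The tRNA synthetases stood higher, with 6 of 33 (26.1% of 23 paired) and none at a 1-strand peak, led by GluProRS (202, 116 and 100). IleRS (150) had a value of 68.6 in replicate 2 and no peak in the replicate 1 list.

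Lists for RNA, DNA and protein turnover varied. DNA replication and repair had 11 of 57 genes (26.2% of 42 paired; 7 in replicate 1's own set), among them the ATR kinase mei-41 (169, 91.8 and 79.7) and the nuclease subunit Ercc1 (155, 73.0 and 82.2). The pair Mcm2 and RPA1, a replicative helicase subunit and a single-strand binding protein, shared a peak with a signal of 114 (69.2 and 49.6). The RNA exosome and ribosome biogenesis list had 6 of 29 (24.0% of 25 paired; 2 in replicate 1's own set), led by l(2)k09848 (205, 101 and 102). These 6 include Rrp1, listed by its symbol, which in the fly encodes a DNA repair endonuclease. Proteasome genes had 5 of 48 (19.2% of 26 paired; 3 in each replicate's own set), led by the regulatory subunit Rpn3 (121, 69.9 and 60.5), and splicing and mRNA processing genes 6 of 47 (15% of 40 paired; 3 in replicate 1's own set), led by Sf3b6 (97.9, 53.7 and 45.1). Cell cycle genes had 3 of 53 (10.7% of 28 paired), Cdc16, E2f2 and Bub1 with signals of 125, 64.2 and 50.2.

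Vesicle transport had 16 of 140 genes (19.8% of 81 paired). Behind CHMP2B were the coat protein gene alphaCOP (307, 161 and 148), the proton pump subunit gene Vha100-2 (241, 117 and 123) and the exocyst subunit gene Sec6 (185), which shares its peak with Atg7. Chromatin and insulator genes had 7 of 44 (23.3% of 30 paired; 4 and 3 in the own sets of replicates 1 and 2) and 6 at 1-strand peaks. Behind Chro stood the remodelling ATPase gene brm (453, 231 and 222), the Polycomb methyltransferase gene E(z) (160, 71.0 and 96.5) and its partner Su(z)12 (69.4, 37.9 and 37.0). In 9 both-strand peaks both nearest genes belonged to a list, in 2 of them to the same list, the pairs Mcm2 and RPA1 and Pex14 and Pex16, which were singled out after their values were seen.

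Signalling and patterning lists, where Rotund is known to act in leg, antenna and wing development, had 7 of their 49 paired genes (14.3%, 7.10 to 26.7) at both-strand peaks, against 17.1% of all paired genes, with signals of 41.9 to 90.4. Leg, antenna and wing patterning had 1 of 41, lin (52.9, 27.7 and 28.2), and 7 at 1-strand peaks, but only 3 of its genes have an opposite start within 1000 bp. Ecdysone response had 1 of 25, the ecdysone receptor partner usp (56.6, 29.5 and 31.7), and 6 at 1-strand peaks, with 4 paired genes. The EGFR list had 1 of 20 (8 paired), the ligand gene Krn (90.4, 45.9 and 45.0), and 5 at 1-strand peaks.

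The Notch list had 2 of 22 (10 paired), the gamma-secretase subunit gene aph-1 (88.0, 46.6 and 38.9) and the coactivator gene mam (80.5, 37.1 and 43.4), and 5 at 1-strand peaks. The Hippo list had 1 of 19 (7 paired), the coactivator gene yki (65.5, 16.2 and 35.4), and 4 at 1-strand peaks. The Dpp list had 1 of 19 (7 paired), the glypican gene dlp (41.9, 28.8 and 16), and 3 at 1-strand peaks. No gene of the Wingless and Hedgehog list, with 27 genes of which 11 are paired, was at a both-strand peak, and 2 were at 1-strand peaks. The glypican gene dlp was placed on the Dpp list and not on this one. In each replicate's own set the counts of the Hippo, Dpp, ecdysone and leg lists were 0. The yki peak did overlap a peak of replicate 2's own set, which did not count as a both-strand peak at yki.

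The DNA at both-strand summits was low in G and C. In the 51 bp at the summit G and C made up 31.2% ± 11.5 (SD, n = 437) at both-strand peaks, 36.1% ± 12.8 (n = 914) at 1-strand peaks and 34.2% ± 11.9 (n = 2423) at peaks with no start. At 200 bp from the summit the means were 40.5%, 43.4% and 45.6%. Both-strand peaks above the upper quartile of signal had 28.1% ± 9.22 (n = 146) and those below the lower quartile 33.6% ± 11.7 (n = 79).

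G and C content was lower still at the middle of the pair. Among 362 peaks with the summit upstream of both starts, the summit had 30.9% ± 11.5 G and C and the middle of the pair 27.3% ± 9.99. Stretches without a peak were also low at their middle, 34.3% ± 12.2 (n = 2109). With the gap held at 200 to 399 bp, the middle of stretches with a summit had 24.1% ± 8.02 (n = 223) and that of stretches without one 28.5% ± 10.4 (n = 640). The difference of these means was smaller than the SD between stretches.

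**Figure D4:**
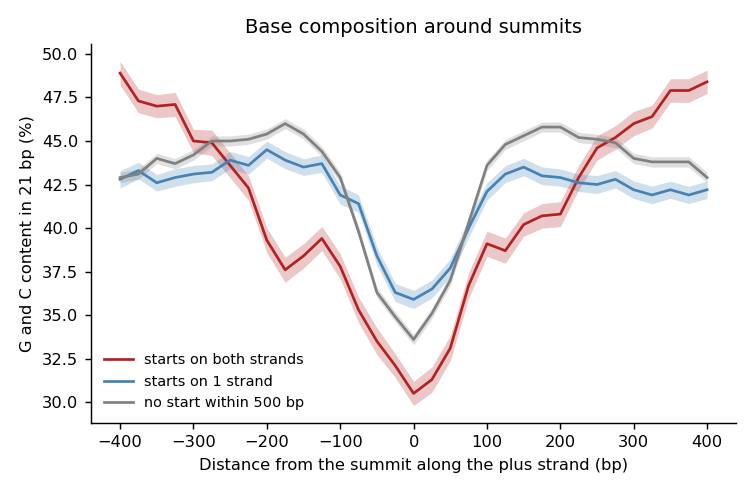
Mean G and C content in percent of 21 bp windows (y axis) against distance from the summit in bp along the plus strand (x axis), for 437 both-strand, 914 1-strand and 2423 no-start peaks, with bands of 1 SE over peaks. All 3 classes dip at the summit, where the both-strand peaks have the lowest mean, 30.5%, against 35.9% and 33.6%.

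Fixed sequence elements were looked for on both strands within 50 bp of summits. Of 12 elements, 7 were more frequent at both-strand than at 1-strand peaks. The GAGA core GAGAG was the 1 element whose 95% intervals in both-strand and 1-strand peaks did not overlap within 50 bp. It was found at 5.26% of both-strand peaks (3.53 to 7.77), 13.6% of 1-strand peaks (11.5 to 15.9), 11.7% of peaks with no start and 11.4% of all peaks. The homeodomain core TAATTA was at 12.6% (9.80 to 16), 8.53% (6.89 to 10.5) and 8.38%, against 8.90% of all peaks. The TATA box letters TATAAA were at 25.6%, 19.9% and 19.4%, against 20.3% of all. TAATTA and TATAAA contain only A and T, and G and C content was lower at both-strand summits, whose part in these shares was not tested. The 101 bp centred 100 bp upstream of all 19253 protein-coding starts held GAGAG in 15.9%, TAATTA in 8.23% and TATAAA in 16.3%.

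The boundary core CGATA was at 19.7% of both-strand, 15.1% of 1-strand and 9.08% of no-start peaks, 11.8% of all peaks and 19.5% of all promoters. The DNA replication-related element TATCGATA, which contains CGATA, was at 2.97%, 1.31% and 0.165%, against 0.768% of all peaks and 2.27% of all promoters. The M1BP element GGTCACAC was at 0.915%, 0.656% and 0.289% (0.450% of all peaks, 1.24% of promoters), the E-box CAGCTG at 3.89%, 3.28% and 2.72% (2.99% and 5.52%) and the E-box CACGTG at 0.686%, 0.656% and 0.578% (0.609% and 1.01%). Less frequent at both-strand than at 1-strand peaks were the initiator letters TCAGTT (5.26%, 6.24% and 6.89%, against 6.54% of all peaks and 6.85% of promoters), AAAAAAA (15.8%, 19.0% and 17.5%, against 17.7% and 10.6%), the Pho core GCCAT (11.9%, 15% and 12.8%, against 13.2% and 15.5%) and CACACA (5.49%, 8.53% and 6.52%, against 6.89% and 8.39%). The 95% intervals of both-strand and 1-strand peaks overlapped for each of these elements. For both E-boxes, the initiator letters and the Pho core the direction changed under another window, a stricter threshold or without 1 replicate. Other limits for the starts, or 1 start per gene, each changed the direction of 2 to 3 of the 12 elements, which are not named here.

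Stretches within 500 bp of starts on both strands that held no peak had higher shares within 50 bp of their middle than both-strand peaks had at the summit for several elements. They had CGATA in 24.2% (22.4 to 26.1), TATCGATA in 5.17%, GGTCACAC in 2.70% and CAGCTG in 6.73%. This sets middles against summits, with the gap not held fixed. With the gap held at 200 to 399 bp, stretches with and without a summit were compared within 100 bp of the middle. CAGCTG was then in 9.87% (6.61 to 14.5) and 7.19% (5.43 to 9.45), the other direction. TATCGATA was in 6.28% and 7.50%, and GGTCACAC in 1.35% and 3.44%. TATCGATA was at 1.72% of both-strand peaks in replicate 1's own set and at 3.08% in that of replicate 2.

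In the wider window several differences between the classes were larger, while that of AAAAAAA was smaller and that of GCCAT changed sign, to 1.28 percentage points higher than at 1-strand peaks. Within 100 bp CGATA was at 42.8% of both-strand peaks (38.2 to 47.5), 26.9% of 1-strand peaks and 17.5% of peaks with no start, and TATCGATA at 9.15% (6.79 to 12.2), 2.52% and 0.330%. GAGAG was at 12.8%, 30.5% (27.6 to 33.6) and 25.8%, and TAATTA at 23.6% (19.8 to 27.8), 12.9% and 13.9%. The 2109 stretches without a peak, of which 120 have facing starts, had within 100 bp of their middle 41.4% for CGATA, 8.77% for TATCGATA, 15.1% for GAGAG and 21.3% for TAATTA. With the gap held at 200 to 399 bp, stretches with and without a summit had CGATA in 37.7% and 39.4%, GAGAG in 12.1% and 13.1%, TAATTA in 33.2% (27.3 to 39.6) and 25.8% (22.5 to 29.3), and TATAAA in 52% (45.5 to 58.5) and 45.0% (41.2 to 48.9).

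**Figure D5:**
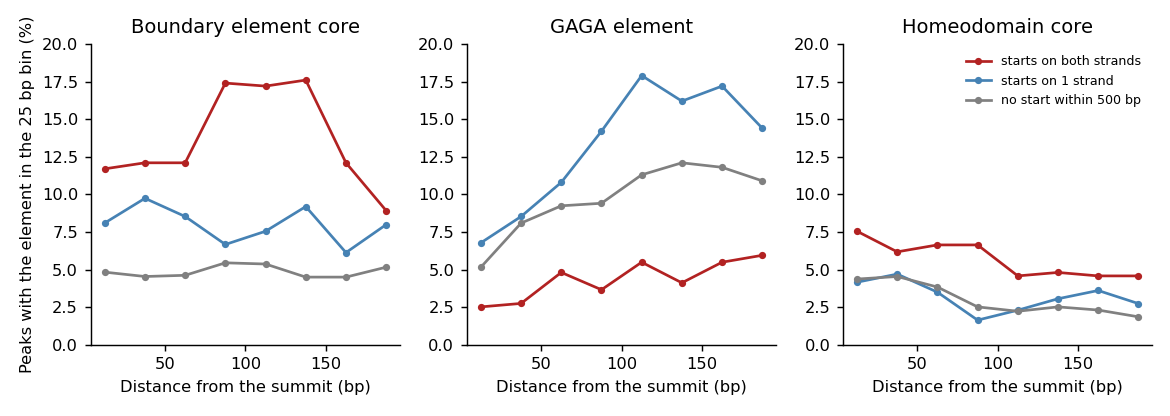
Percentage of peaks with an element centred in each 25 bp bin of distance from the summit, for the boundary element core CGATA, the GAGA element GAGAG and the homeodomain core TAATTA, in both-strand, 1-strand and no-start peaks. CGATA in both-strand peaks is at 11.7% next to the summit and 17.6% at 125 to 150 bp, and GAGAG stays below the other classes at each distance.

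The elements also differed in place. CGATA in both-strand peaks was found at 11.7% in the 25 bp next to the summit, and at 17.4%, 17.2% and 17.6% in the bins between 75 and 150 bp, while in 1-strand peaks no bin exceeded 9.74%. TATCGATA was most frequent at 75 to 100 bp, with 5.26% of both-strand peaks. The 86 matches to TATCGATA within 200 bp of both-strand summits lay a median of 18.5 bp upstream of the nearer start and 97.5 bp from the summit. The first distance is signed and takes the nearer of the starts, so these medians do not compare start and summit match by match. A match is only a run of letters and shows no binding by Dref or BEAF-32.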

How the data were processed

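The deposited files are lists of ChIP-seq peaks on dm6, per the labels, as narrowPeak tables for each replicate and for both replicates together. In the deposited lists the score is the irreproducible discovery rate (IDR) rescaled by the authors to at most 1000, and 830 is an IDR of 0.01. The −log10 of the IDR was taken from the authors' ranked list. The signal is the peak height the authors deposited, and lists were not brought to 1 scale. Aligner and peak caller are not stated in the labels or files. The lists hold no reads, so depth is unknown.

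Of 3777 thresholded peaks, 3 off the 6 arms were left out. Summits were placed on transcript starts of protein-coding genes of Ensembl release 115 (BDGP 6.54) and on the RefSeq Release 6 sequence. Coordinates are 1-based. A replicate's value is the signal of the peak in its ranked list that covers the summit, or else overlaps the peak by at least 1 bp, the strongest where several do. Shares carry 95% Wilson intervals, which cover counting error over peaks, genes or stretches only. With 1 group of 2 replicates no test was made. Nothing states how the biological replicates were kept apart, so their spread may be partly technical.

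Elements were searched on both strands. The text names the pairs of the 12 strongest and 3 weakest both-strand peaks, up to 4 genes per list with the strongest peak, the 2 peaks on each side of the 500 bp limit and the peaks with most genes, except that 1 of the 3 weakest is not reported here. Members, gene lists and elements were chosen with earlier results of these data known. Steps were tested on simulated starts and sequences. Results were recomputed with an IDR of 0.001, the single-replicate sets, the conservative set, starts within 250 or 1000 bp, starts of all biotypes, 1 start per gene, an overlap of 50% and windows of 25 or 100 bp. Python 3.11.15, numpy 2.4.6, scipy 1.17.1 and matplotlib 3.10.9 were used.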

Additional observations from a re-analysis of the deposited data

Results flagged for a closer look

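The authors' ranked list over both replicates holds 82 peaks at or above the threshold score of 830 that the thresholded set lacks, and 6 of them have protein-coding starts on both strands within 500 bp. They were singled out because they lie outside the set that the comparisons above use. The strongest had a signal of 418 at eIF4EHP, a cap-binding translational repressor gene, and CG18428 (chr3R:24109063-24109323). The next had 232 at pont, the Pontin ATPase gene, and Sirt6 (chr3R:10261970-10262053). The others had 81.4 at RpL13A and Dph4, 70.9 at pkaap and crp, 64.0 at Rlb1 and Ras85D and 51.2 at Bicra and Cul5. Their median of 76.2 is below the 88.9 of the 437 both-strand peaks. Why the thresholded set lacks them was not tested.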

How the results depend on the processing

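No paired analysis was possible because the series has 1 group. With starts within 250 bp, 276 peaks qualified, 26.8% of promoter peaks, with a difference in median signal from 1-strand peaks of 21, a gap of 247 bp, a density ratio of 5.46, 54.3% in both replicates' sets and 83 list genes. With starts within 1000 bp the difference was 4.4, 79.4% of summits lay between starts, the gap was 313 bp and the ratio 2.49. At an IDR of 0.001, 282 peaks qualified, with a difference of 2.75, a gap of 278 bp, 29.9% G and C at the summit and 73.8% in both sets. The conservative set gave a difference of 5.47 and a gap of 279 bp. Starts of all biotypes gave a gap of 276 bp and a ratio of 3.34. With 1 start per gene the share was 37.8%, the difference 6.84, 73.7% lay between starts and the gap was 264 bp. G and C within 100 bp was 34.0%. Except that the wider and narrower limits change the rule itself, the cause was not tested.

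Leaving out a replicate gave 290 to 292 peaks, a share of 32.3 to 35.3%, a difference of 3.4 to 3.81, 82.8 to 84.2% between starts, a gap of 278 bp, a ratio of 3.89 to 4.45, 30.2 to 31.3% G and C and 91 to 94 list genes. The difference in median signal stayed above 0 and the density ratio above 1 under each setting run for them. With starts within 250 bp, 3 of the 12 elements changed direction against 1-strand peaks. With starts within 1000 bp 2 did, and with 1 start per gene 3, which are not named here. Under the other settings between 6 and 8 of the 12 elements were more frequent than at 1-strand peaks, but not always the same ones. The difference in share from 1-strand peaks changed sign for CACGTG without replicate 2 (-0.66 percentage points), without replicate 1 (-0.22) and within 25 bp (-0.10), for TCAGTT without replicate 1 (0.12, against -0.72 without replicate 2) and within 25 bp (0.26), for GCCAT without replicate 2 (2.99, against -1.84 without replicate 1) and within 100 bp (1.28), and for CAGCTG at an IDR of 0.001 (-1.02). Counts of single lists moved by over 1.5 times for 3 of 22 lists in the conservative set and for 10 to 13 under the 0.001 IDR, the 250 bp limit or either replicate alone. In these latter settings the both-strand peaks themselves numbered 276 to 292, against 437. The list counts were not scaled for that.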
